A study of Rattus norvegicus with 12 samples.

Results

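Mt-co1, Mt-co2 and Mt-co3 encode the catalytic core of cytochrome c oxidase, the last complex of the respiratory chain, and Mt-cyb encodes cytochrome b of the cytochrome bc1 complex just before it. The 4 genes were taken by name from a table of 30560 genes, counted in 12 RNA libraries of rat skeletal muscle mitochondria. All 4 passed the filter on low counts that left 26483 genes for testing. Their identifiers were ENSRNOG00000034234 for Mt-co1, ENSRNOG00000030371 for Mt-co2, ENSRNOG00000030700 for Mt-co3 and ENSRNOG00000031766 for Mt-cyb.

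The study compared ways of purifying mitochondria before sequencing their RNA. Each of the 4 preparations gave 3 libraries, all from aliquots of pooled muscle homogenate of 1 wild-type male Wistar Kyoto rat aged 14 weeks, so errors and p-values cover the spread between aliquots, which may be technical, and not the spread between animals. The mitoplast_RNase group held mitoplasts, mitochondria stripped of their outer membrane, made from immunoprecipitated mitochondria and treated with RNase A, which degrades accessible RNA. The IP_RNase_ProK group held immunoprecipitated mitochondria treated with RNase A and with proteinase K, a protease that reaches proteins on the outside of the organelle. The IP_RNase group held immunoprecipitated mitochondria treated with RNase A alone. The crude_RNase group held mitochondria from differential centrifugation, also treated with RNase A. The first 3 groups were captured on antibody-coated magnetic beads and are called bead-captured here. No library without RNase A was compared. The amount of RNA put into a library was 40 ng in the bead-captured groups and 6.3 ng in crude_RNase, so input and preparation cannot be told apart.

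Mitochondrial DNA carries 13 protein-coding genes, and all of their products sit in the inner membrane as subunits of the respiratory chain or of ATP synthase. Both strands are transcribed as long precursors from which mRNAs, rRNAs and tRNAs are cut out, so the mRNAs come largely from common transcripts and later differ by processing and stability. Cytochrome c oxidase reduces oxygen to water with electrons from cytochrome c. Mt-co1 binds the haem groups and a copper ion at the oxygen site, Mt-co2 holds the copper centre that takes the electrons, and Mt-co3 completes the core. Cytochrome b carries the haem groups that pass electrons within complex III. Each complex also needs nuclear-encoded subunits, whose mRNAs are made outside the organelle. Skeletal muscle is rich in both complexes.

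Libraries held between 3325430 and 4563254 counts in the bead-captured groups and between 6583452 and 7123045 in crude_RNase. The 13 mitochondrial mRNAs took 1.74% ± 0.207 of all counts in mitoplast_RNase, 1.76% ± 0.294 in IP_RNase_ProK, 3.997% ± 1.52 in IP_RNase and 25.7% ± 2.97 in crude_RNase (SD, 3 libraries each). Olfactory receptor genes, which skeletal muscle does not normally transcribe, had a median of 30 to 49 counts per library. The 4 mRNAs stood far above that level, at 68.3 to 877 times the olfactory receptor median in bead-captured libraries and 2171 to 11175 times in crude_RNase libraries. Olfactory receptor genes together took 1.54% ± 0.0530 of counts in mitoplast_RNase, 1.57% ± 0.0138 in IP_RNase_ProK, 1.61% ± 0.127 in IP_RNase and 0.678% ± 0.0546 in crude_RNase (SD, 3 libraries each). What part this background has in the shares of the 4 mRNAs was not tested. Of 12 skeletal muscle fibre markers fixed for the check, 11 were in the table and none was at 0 in any library. IP_RNase replicate 3 stood apart from its group. Its counts on mitochondrial rRNA and tRNA genes were 0.957 of its mitochondrial mRNA counts, against 0.370 and 0.303 in IP_RNase replicates 1 and 2. Chi-square per degree of freedom over genes was 5.04 and 7.31 between it and its group mates, against 2.02 between those. Crude_RNase replicate 1 also stood apart, with 11.96 and 12.1 to its group mates, against 4.43 between those, and with a TMM scaling factor of 0.679, against 0.525 and 0.528. The fold changes of the 4 mRNAs and the list counts are also given without these libraries.

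All 4 mRNAs were far scarcer in every bead-captured library than in any crude_RNase library, and among bead-captured preparations they were scarcer again in mitoplast_RNase and IP_RNase_ProK than in IP_RNase. Levels are given for each gene as CPM, counts rescaled to an equal library total of 1000000, with library sizes corrected by the trimmed mean of M-values (TMM), with libraries in the order of their replicate numbers. Gene lengths were not used, so levels are compared between preparations and not between genes.

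Mt-co1 had 2531, 2240 and 1767 CPM in mitoplast_RNase, 1615, 1946 and 2586 in IP_RNase_ProK, 4424, 2944 and 8038 in IP_RNase, and 63165, 98714 and 91919 in crude_RNase. The lowest crude_RNase library was thus several times above the highest bead-captured library, which was IP_RNase replicate 3. The mitoplast_RNase and IP_RNase_ProK ranges overlapped, and every IP_RNase library lay above both. Mt-co2 had 795, 745 and 568 CPM in mitoplast_RNase, 630, 700 and 821 in IP_RNase_ProK, 1483, 1047 and 2414 in IP_RNase, and 16555, 26921 and 23174 in crude_RNase. As for Mt-co1, crude_RNase was highest and IP_RNase next, with overlap only between the 2 lowest groups, mitoplast_RNase and IP_RNase_ProK.

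Mt-co3 had 1153, 1038 and 923 CPM in mitoplast_RNase, 884, 1012 and 1321 in IP_RNase_ProK, 2875, 1855 and 4260 in IP_RNase, and 32270, 49622 and 43591 in crude_RNase. Mt-cyb, the complex III member, had 1992, 1912 and 1672 CPM in mitoplast_RNase, 1639, 1819 and 2270 in IP_RNase_ProK, 4313, 2877 and 6077 in IP_RNase, and 46275, 71867 and 60660 in crude_RNase. For both genes the lowest library of the set was IP_RNase_ProK replicate 1 and the highest was in crude_RNase. Within IP_RNase, replicate 2 was lowest and replicate 3 highest for each of the 4 mRNAs.

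**Figure D1:**
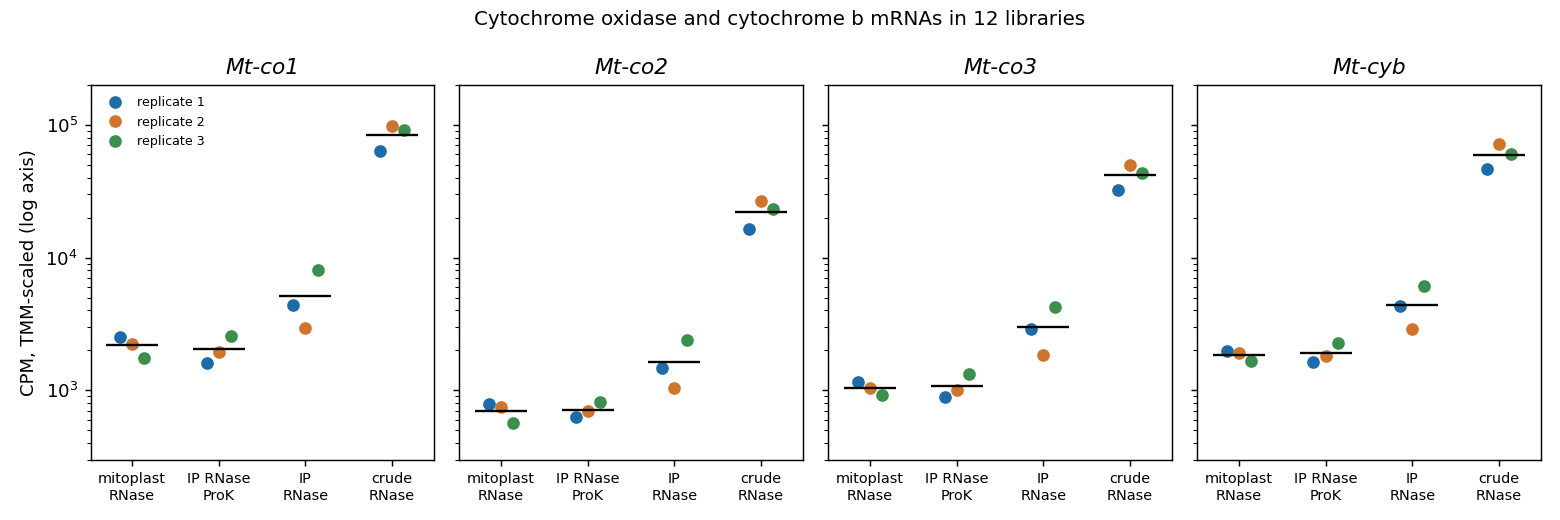
TMM-scaled CPM of Mt-co1, Mt-co2, Mt-co3 and Mt-cyb on a log axis, 1 panel per gene, with the 12 libraries as points by preparation and a bar at each group's mean. Crude_RNase lies above all bead-captured libraries in each panel, from 16555 to 26921 CPM for Mt-co2, and IP_RNase lies above mitoplast_RNase and IP_RNase_ProK, which overlap.

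As a share of all counts, a measure that does not use the TMM factors, the 4 mRNAs together took 0.699% ± 0.0911 in mitoplast_RNase, 0.700% ± 0.136 in IP_RNase_ProK, 1.64% ± 0.638 in IP_RNase and 11.7% ± 1.13 in crude_RNase (SD, 3 libraries each). IP_RNase replicates 1 and 2 alone had 1.56% and 1.05%, and crude_RNase replicates 2 and 3 had 12.96% and 11.6%. Mt-co1 alone took 0.198% to 0.897% of counts over the 9 bead-captured libraries and 4.28% to 5.18% over the 3 crude_RNase libraries. Mt-cyb took 0.201% to 0.678% in bead-captured libraries and 3.13% to 3.77% in crude_RNase libraries. Mt-co3 ranged from 0.108% to 0.476% in bead-captured libraries and from 2.19% to 2.60% in crude_RNase libraries, and Mt-co2 from 0.0691% to 0.269% in bead-captured libraries and from 1.12% to 1.41% in crude_RNase libraries. None of these ranges overlapped. In a two-sided exact permutation test of 9 against 3 libraries, each mRNA gave p = 0.00909, the smallest value that this design allows. How many of all genes reach it was not counted. With scaling to total counts edgeR called 94.7% to 95.2% of all genes higher in bead-captured groups and 0.676% to 0.714% lower. A difference by itself is thus common among all genes, and a lower level is rare. The 9 bead-captured libraries are 3 preparations rather than replicates of one, so this p describes the split between bead capture and centrifugation only. A lower share of counts can come from fewer copies or from more RNA of other kinds in the library, and these cannot be told apart here.

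In the fit across all genes, each of the 4 mRNAs fell in each bead-captured group relative to crude_RNase (edgeR's quasi-likelihood test with Benjamini-Hochberg adjustment over all genes). For mitoplast_RNase against crude_RNase, 4 of 4 were lower, where 4.54% of all genes tested were called lower. The log2 fold changes were -5.28 ± 0.275 for Mt-co1 (SE, adjusted p = 8.22e-23), -4.98 ± 0.213 for Mt-co2, -5.33 ± 0.233 for Mt-co3 and -5.00 ± 0.234 for Mt-cyb. On a linear scale Mt-co3 was 40.3-fold lower in mitoplast_RNase, and Mt-co2, the least changed of the 4, was 31.6-fold lower.

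For IP_RNase_ProK against crude_RNase, 4 of 4 were lower, against 5.04% of all genes. Here Mt-co1 showed the lowest value of the 4, at -5.37 ± 0.276, which is 41.3-fold lower (SE, edgeR adjusted p = 4.70e-23). Mt-co3 followed at -5.29 ± 0.233, Mt-cyb at -4.96 ± 0.234 and Mt-co2 at -4.95 ± 0.213. Whether the 4 differed from each other was not tested in this fit.

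For IP_RNase against crude_RNase, 4 of 4 were lower, against 5.09% of all genes. The fold changes were smaller than in the other 2 bead-captured groups: -4.04 ± 0.259 for Mt-co1, -3.80 ± 0.217 for Mt-co3, -3.75 ± 0.201 for Mt-co2 and -3.75 ± 0.220 for Mt-cyb (SE, edgeR adjusted p between 3.21e-22 for Mt-co2 and 6.75e-19 for Mt-co1). Without IP_RNase replicate 3 the values were -4.52 for Mt-co1, -4.13 for Mt-co2, -4.14 for Mt-co3 and -4.05 for Mt-cyb. Without crude_RNase replicate 1 they were -4.21 for Mt-co1, -3.93 for Mt-co2, -3.96 for Mt-co3 and -3.91 for Mt-cyb. The 4 mRNAs in that order were then at -5.45, -5.16, -5.49 and -5.16 in mitoplast_RNase and at -5.54, -5.13, -5.44 and -5.12 in IP_RNase_ProK, all still past the threshold. The 3 comparisons share the crude_RNase libraries and are not independent.

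The 9 other mitochondrial mRNAs, which encode 7 subunits of complex I and 2 of ATP synthase, were also lower in all 3 comparisons with crude_RNase, 9 of 9 in each. Their median log2 fold change was -4.80 in mitoplast_RNase, -4.87 in IP_RNase_ProK and -3.63 in IP_RNase, beside medians of -5.14, -5.12 and -3.78 over the 4 mRNAs. The median over all genes tested was 0.0046, 0.0033 and 0.0069 in those groups. When libraries were scaled to their total counts instead, the all-gene median moved to 1.07, 1.08 and 1.03, and the 4 mRNAs were still lower, with medians of -4.04, -4.02 and -2.74.

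**Figure D2:**
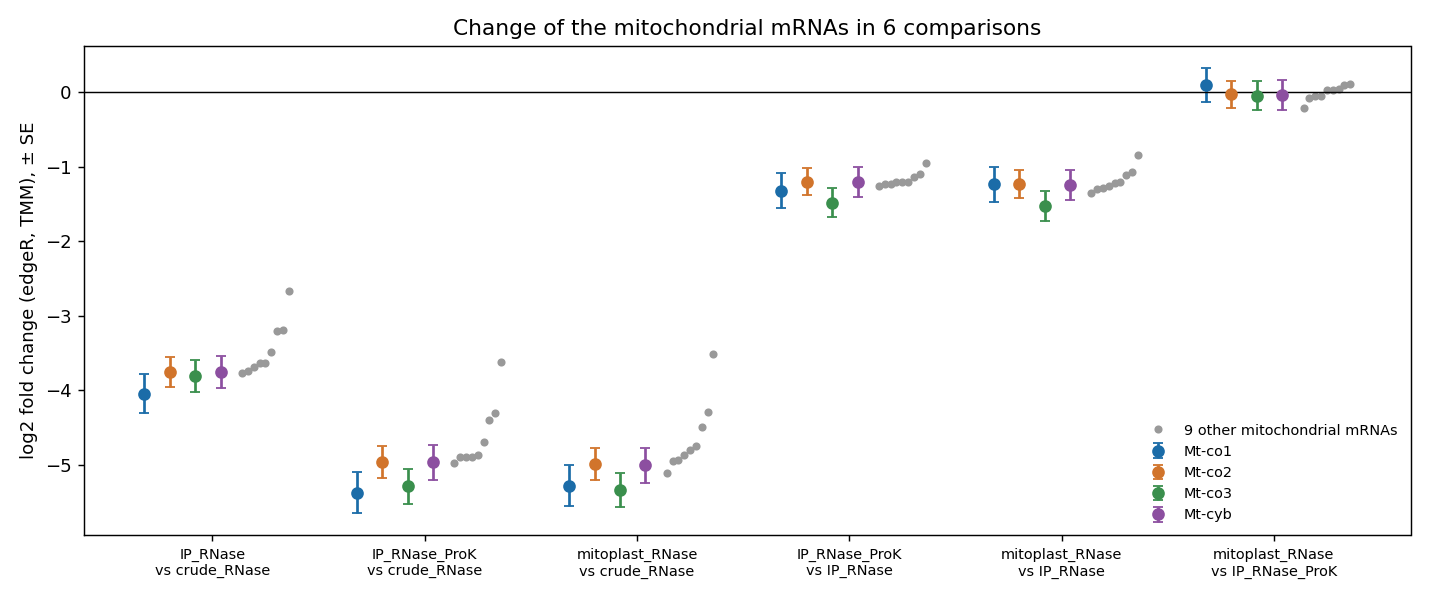
Log2 fold changes with TMM scaling for 6 comparisons of the preparations, with bars of ± 1 SE for Mt-co1, Mt-co2, Mt-co3 and Mt-cyb and with the 9 other mitochondrial mRNAs as grey points. The 4 mRNAs lie between -5.37 and -3.75 in the comparisons with crude_RNase, between -1.53 and -1.20 in those with IP_RNase, and around 0 for mitoplast_RNase against IP_RNase_ProK.

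Proteinase K treatment and mitoplast preparation were each compared with immunoprecipitated mitochondria that had RNase A alone. For IP_RNase_ProK against IP_RNase, 4 of 4 mRNAs were lower, where only 0.110% of all genes tested were called lower. Mt-co3 showed the lowest value, -1.48 ± 0.199, or 2.79-fold lower (SE, edgeR adjusted p = 2.94e-06). Mt-co1 was at -1.33 ± 0.234 (adjusted p = 0.000779), Mt-cyb at -1.21 ± 0.201 (adjusted p = 0.000246) and Mt-co2 at -1.20 ± 0.184 (adjusted p = 5.61e-05), all by edgeR. All 9 of the other mitochondrial mRNAs were lower too, with a median of -1.21.

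For mitoplast_RNase against IP_RNase, 4 of 4 were lower, against 0.132% of all genes. Mt-co3 again showed the lowest value, at -1.53 ± 0.199 or 2.89-fold lower (SE, edgeR adjusted p = 1.46e-06). Mt-cyb was at -1.25 ± 0.201 (adjusted p = 0.000140), Mt-co1 at -1.24 ± 0.233 (adjusted p = 0.00236) and Mt-co2 at -1.23 ± 0.184 (adjusted p = 3.23e-05), all by edgeR. Of the 9 other mitochondrial mRNAs, 8 were lower, and Mt-atp8 at -0.84 did not pass (edgeR adjusted p = 0.0632). The median of the 9 was -1.23.

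Part of the size of these differences rests on IP_RNase replicate 3. Without it, Mt-co1 was at -0.85 for IP_RNase_ProK against IP_RNase (edgeR adjusted p = 0.0300) and at -0.76 for mitoplast_RNase against IP_RNase, where it no longer passed (edgeR adjusted p = 0.0914). The other 3 mRNAs remained past the threshold without that library, at -0.82 to -1.14 in IP_RNase_ProK and -0.85 to -1.19 in mitoplast_RNase. Mt-co1 also lost its call for mitoplast_RNase against IP_RNase without mitoplast_RNase replicate 3, at -1.11 (edgeR adjusted p = 0.0879), and in DESeq2, at -1.24 (adjusted p = 0.0910). For IP_RNase_ProK against IP_RNase it lost the call without IP_RNase_ProK replicate 1, at -1.18 (edgeR adjusted p = 0.0506).

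Between mitoplast_RNase and IP_RNase_ProK no difference was found for any of the 4 mRNAs, and 0% of all genes tested were called (0 genes by edgeR and 0 by DESeq2, with 741 genes at an unadjusted edgeR p under 0.05). The log2 fold change was 0.09 for Mt-co1, with a 95% interval from -0.37 to 0.55. It was -0.03 for Mt-co2 (-0.39 to 0.34), -0.05 for Mt-co3 (-0.44 to 0.34) and -0.04 for Mt-cyb (-0.44 to 0.36). Each interval leaves room for a difference in either direction, so the 2 levels are not shown to be equal. In order of level, crude_RNase was highest for each mRNA and IP_RNase next. The 2 lowest groups did not differ beyond their spread.

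A second question is whether the 4 mRNAs changed to the same extent as the rest of the mitochondrial mRNAs. Counts of each were divided by the summed counts of the 9 other mitochondrial mRNAs in the same library, and the ratio was put on a log2 scale, which removes the overall level of mitochondrial RNA from the comparison. The 4 mRNAs made up 40.0% ± 1.18 of the counts on all 13 mRNAs in mitoplast_RNase, 39.8% ± 1.09 in IP_RNase_ProK, 41.1% ± 0.526 in IP_RNase and 45.9% ± 0.888 in crude_RNase (SD, 3 libraries each). All 4 had a lower ratio in every bead-captured library than in any crude_RNase library, but by unequal amounts. This was not particular to the 4, since Mt-nd4, which is among the 9, was also lower in every bead-captured library. Mt-nd4l, Mt-nd6 and Mt-atp8 were higher in every bead-captured library.

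Mt-co1 had log2 ratios of -1.86, -2.05 and -2.08 in mitoplast_RNase, -2.19, -2.14 and -1.96 in IP_RNase_ProK, -2.12, -2.08 and -1.86 in IP_RNase, and -1.51, -1.61 and -1.49 in crude_RNase. The 3 bead-captured groups overlapped with each other and none reached crude_RNase. The mean over the 9 bead-captured libraries was 0.50 lower on the log2 scale than in crude_RNase (difference -0.50). Mt-co3 had a difference of -0.39, Mt-cyb of -0.15 and Mt-co2 of -0.14, and their ranges did not overlap with crude_RNase either. The sizes depend on the denominator. Against the geometric mean of the 9 mRNAs the differences were -0.69 for Mt-co1, -0.58 for Mt-co3, -0.34 for Mt-cyb and -0.33 for Mt-co2. Without crude_RNase replicate 1 they were -0.48 for Mt-co1, -0.36 for Mt-co3, -0.11 for Mt-cyb and -0.13 for Mt-co2. Each difference over all 12 libraries against the summed counts had an exact two-sided permutation p = 0.00909 for 9 against 3 libraries, and 0.0636 after adjustment over the 7 comparisons of each mRNA, which is the smallest adjusted value that this design allows.

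For Mt-co3 the bead-captured groups did not all overlap. Its log2 ratios were -2.996, -3.16 and -3.02 in mitoplast_RNase, -3.06, -3.08 and -2.93 in IP_RNase_ProK, -2.74, -2.75 and -2.78 in IP_RNase, and -2.48, -2.61 and -2.57 in crude_RNase. Thus the mitoplast_RNase and IP_RNase_ProK libraries lay below all IP_RNase libraries, and IP_RNase below crude_RNase. The difference was -0.30 for mitoplast_RNase against IP_RNase and -0.27 for IP_RNase_ProK against IP_RNase (exact permutation p = 0.1 in each, the smallest that 3 against 3 libraries can give, and 0.117 adjusted). Without IP_RNase replicate 3 these were -0.31 and -0.28. For Mt-co1, Mt-co2 and Mt-cyb the groups overlapped in those 2 comparisons, with differences between -0.08 and 0.03. Whether Mt-co3 shifted more than these 3 was not itself tested. Separation from IP_RNase was not particular to Mt-co3. The ratio of Mt-nd4l, among the 9, was higher in every mitoplast_RNase and IP_RNase_ProK library than in any IP_RNase library. That of Mt-atp8 was higher in every mitoplast_RNase library than in any IP_RNase library.

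Ratios between pairs of the 4 mRNAs do not use the other 9. Mt-co3 had 0.579, 0.543 and 0.552 counts per count of Mt-cyb in mitoplast_RNase, 0.539, 0.557 and 0.582 in IP_RNase_ProK, 0.667, 0.645 and 0.701 in IP_RNase, and 0.697, 0.690 and 0.719 in crude_RNase. Every mitoplast_RNase and IP_RNase_ProK library was below every IP_RNase and crude_RNase library in this ratio. Mt-co1 per count of Mt-cyb was 1.27, 1.17 and 1.06 in mitoplast_RNase, 0.985, 1.07 and 1.14 in IP_RNase_ProK, 1.03, 1.02 and 1.32 in IP_RNase, and 1.37, 1.37 and 1.52 in crude_RNase. For that ratio crude_RNase was highest, and IP_RNase replicate 3 came closer to it than any other bead-captured library. Mt-co2 per count of Mt-cyb overlapped between all 4 groups, at 0.340 to 0.399 in mitoplast_RNase, 0.362 to 0.385 in IP_RNase_ProK, 0.344 to 0.397 in IP_RNase and 0.358 to 0.382 in crude_RNase. Mt-co3 per count of Mt-co1 was 0.455, 0.463 and 0.522 in mitoplast_RNase, 0.548, 0.520 and 0.511 in IP_RNase_ProK, 0.6498, 0.630 and 0.530 in IP_RNase, and 0.511, 0.503 and 0.474 in crude_RNase. Within complex IV the order thus differed, since crude_RNase lay below every IP_RNase library and overlapped with mitoplast_RNase.

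**Figure D3:**
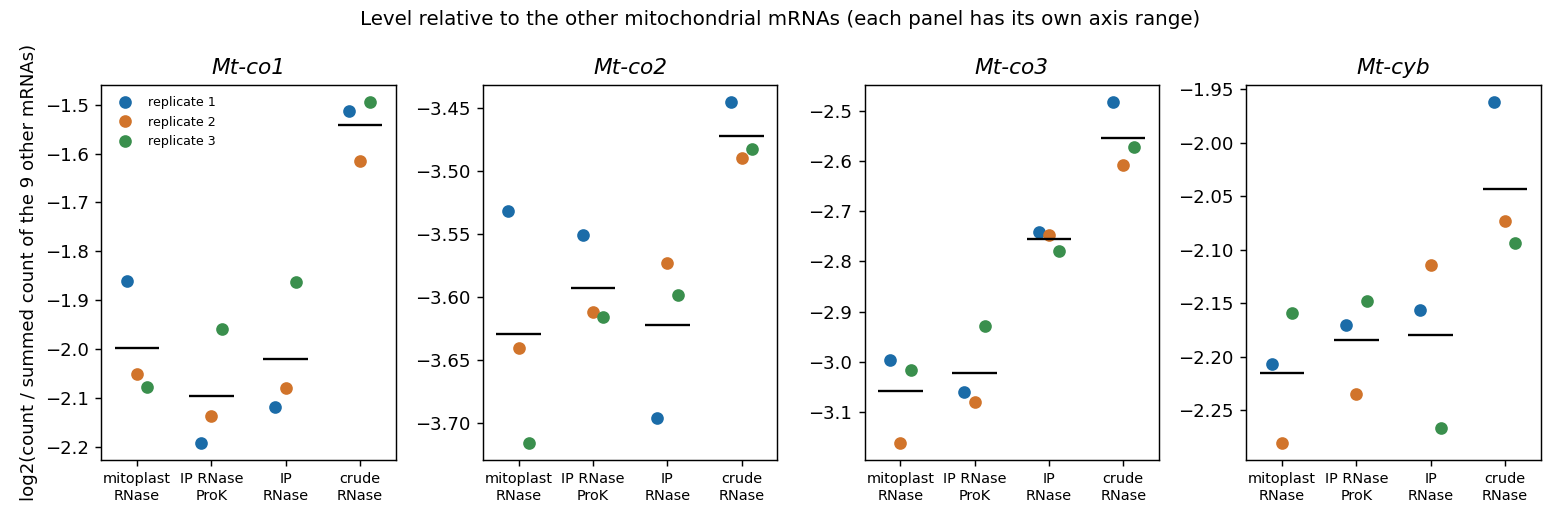
Log2 ratio of each mRNA to the summed counts of the 9 other mitochondrial mRNAs, 1 panel per gene, with the 12 libraries as points and a bar at each group's mean. Mt-co1 splits into bead-captured libraries, from -2.19 to -1.86, and crude_RNase, from -1.61 to -1.49, while Mt-co3 is also lower in mitoplast_RNase and IP_RNase_ProK, from -3.16 to -2.93, than in IP_RNase, from -2.78 to -2.74.

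When the fit across all genes was scaled on the 9 other mitochondrial mRNAs, Mt-co1 remained lower in each bead-captured group relative to crude_RNase. Its log2 fold change was -0.45 in mitoplast_RNase (edgeR adjusted p = 0.0322), -0.55 in IP_RNase_ProK (edgeR adjusted p = 0.00919) and -0.48 in IP_RNase (edgeR adjusted p = 0.0246). Mt-co3 was lower in mitoplast_RNase at -0.50 (edgeR adjusted p = 0.0350) and in IP_RNase_ProK at -0.47 (edgeR adjusted p = 0.0494), and it did not pass in IP_RNase at -0.20. Mt-co2 and Mt-cyb passed in none of the comparisons with crude_RNase. In mitoplast_RNase, IP_RNase_ProK and IP_RNase, Mt-co2 was at -0.16, -0.12 and -0.15 and Mt-cyb at -0.17, -0.14 and -0.14. Mt-nd4, part of the denominator, was near them at -0.10, -0.14 and -0.13. Mt-atp8, also part of it, went the other way at 1.28, 1.20 and 0.85. Under this scaling 99.9% of all genes were called in each comparison with crude_RNase, nearly all of them higher, and 0.0529%, 0.0566% and 0.0604% were called lower in mitoplast_RNase, IP_RNase_ProK and IP_RNase. The adjustment therefore changes p little, and the spread is borrowed from genes of other origin. In the comparisons with IP_RNase none of the 4 passed, where 93.0% of genes were called for IP_RNase_ProK and 92.6% for mitoplast_RNase. Mt-co3 was at -0.30 in mitoplast_RNase (edgeR adjusted p = 0.212) and at -0.27 in IP_RNase_ProK (edgeR adjusted p = 0.268).

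The mRNAs whose level across the 12 libraries was most like that of the 4 were other mitochondrial mRNAs. Among 18759 genes with a mean of at least 50 counts, the 8 highest Pearson correlations of log2 CPM with the mean of the 4 belonged to Mt-nd4 (r = 0.9997), Mt-nd1, Mt-nd5, Mt-nd2, Mt-nd4l, Mt-atp6, Mt-nd3 and Mt-nd6 (r = 0.997). These points share libraries and scaling and fall into a crude_RNase and a bead-captured cluster, which mainly sets such values, so they are given as a description. With each group's mean removed, r was 0.993 for Mt-nd4 and 0.942 for Mt-nd6, the only mitochondrial mRNA made from the other strand. The highest nuclear gene was Mgp, matrix Gla protein, named after its values were seen. Its r was 0.985 over the 12 libraries and 0.3503 with group means removed. Pairs among the 4 mRNAs had r of 0.974 to 0.996 with group means removed, lowest for Mt-co2 with Mt-co3 and highest for Mt-co3 with Mt-cyb.

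Complex IV also needs nuclear subunits such as Cox4i1, which regulates the enzyme, and 13 of the 17 listed were in the table and tested. In each bead-captured group 7 of 13 were lower than in crude_RNase, where 4.54% to 5.09% of all genes were called lower. The median log2 fold change of the 13 was -0.91 in mitoplast_RNase, -0.91 in IP_RNase_ProK and -0.86 in IP_RNase. With scaling to total counts these medians turned to 0.17, 0.17 and 0.16, with 3 lower and 5 higher in each. Under that scaling 0.676%, 0.702% and 0.714% of all genes were called lower in mitoplast_RNase, IP_RNase_ProK and IP_RNase, and 95.2%, 95.2% and 94.7% higher. The direction of the subunit median thus depends on the scaling, unlike that of the mitochondrial mRNAs, whose direction was lower under both. Not every subunit turned, since 3 were called lower with scaling to total counts.

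Cox4i1 averaged 21.4 ± 1.65 CPM in mitoplast_RNase, 22.4 ± 0.575 in IP_RNase_ProK, 22.6 ± 1.76 in IP_RNase and 73.4 ± 8.27 in crude_RNase (SD, 3 libraries each). Its log2 fold change against crude_RNase was -1.78 ± 0.106, -1.71 ± 0.104 and -1.70 ± 0.107 in mitoplast_RNase, IP_RNase_ProK and IP_RNase (SE, edgeR adjusted p at most 3.55e-19). Cox6c, a small subunit of the same enzyme, was at -1.92, -2.28 and -1.997 in those groups, Cox5b at -1.68, -1.54 and -1.59, and Cox5a at -0.97, -1.13 and -1.17. Cox6b1, Cox7a2l and Cox7c were the other 3 that fell. Those that did not pass were Cox4i2, Cox6a1, Cox6a2, Cox7a1, Cox7b and Ndufa4.

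Of the nuclear subunits of complex III and cytochrome c, 9 of 10 tested were lower in each bead-captured group, where 4.54% to 5.09% of all genes were called lower. Medians over the 10 were -1.09 in mitoplast_RNase, -1.06 in IP_RNase_ProK and -0.96 in IP_RNase. With scaling to total counts the medians were -0.02, 0.03 and 0.07. Uqcrfs1, the Rieske iron-sulfur protein, averaged 9.58 ± 0.811 CPM in mitoplast_RNase, 10.4 ± 3.0004 in IP_RNase_ProK, 9.44 ± 1.96 in IP_RNase and 35.0 ± 3.96 in crude_RNase (SD, 3 libraries each). Its log2 fold changes were -1.87, -1.77 and -1.90. Cyc1, cytochrome c1, was at -0.92, -0.89 and -0.94, and Cycs, the soluble electron carrier between the complexes, at -1.35, -1.36 and -0.96. With TMM scaling the tested row that did not pass was a second identifier of Uqcrb with a mean of 7.92 counts. With scaling to total counts only Uqcrfs1 was called lower in each group, plus Uqcrh in mitoplast_RNase and Uqcrq in IP_RNase_ProK. Uqcrc1 and 1 row of Uqcrb were called higher in each, and Uqcrc2 in mitoplast_RNase and IP_RNase. Under that scaling 94.7% to 95.2% of all genes were called higher and 0.676% to 0.714% lower, so a higher call does not set these genes apart. Cyc1 and Cycs passed in none, so most of the calls with TMM scaling depend on the scaling.

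Assembly factors of both complexes did not pass in any comparison with crude_RNase, 0 of 18 tested, with medians of 0.02, 0.05 and 0.01 in mitoplast_RNase, IP_RNase_ProK and IP_RNase. Of 29 nuclear genes for mitochondrial transcription, RNA processing, RNA stability and translation, 2 were lower in mitoplast_RNase, 1 in IP_RNase_ProK and 2 in IP_RNase. Of all genes tested, 4.54%, 5.04% and 5.09% were called lower in those groups, so the counts of both lists are near the background. One gene called lower was Lrpprc, which binds and stabilises mitochondrial mRNAs, at -0.41, -0.32 and -0.31. The other was Tufm, the mitochondrial elongation factor Tu, at -0.51 in mitoplast_RNase and -0.40 in IP_RNase. In IP_RNase_ProK Tufm was at -0.27 and did not pass (edgeR adjusted p = 0.183). Under scaling to total counts all 18 assembly factors and all 29 of these genes were called higher in each bead-captured group, as were 25223, 25222 and 25084 of all 26483 genes in mitoplast_RNase, IP_RNase_ProK and IP_RNase, so these shares are near the background. Without IP_RNase replicate 3 the TMM-scaled counts of the 4 nuclear lists were as given, except 3 of 29 lower in IP_RNase. Without crude_RNase replicate 1 they were as given, except 8 of 13 complex IV subunits lower in mitoplast_RNase and IP_RNase_ProK and 1 of 18 assembly factors higher in each group. In the comparisons among bead-captured groups 0 genes of these 4 lists were called, where the 4 mitochondrial mRNAs were called in both comparisons with IP_RNase. The count of 0 is near the share of all genes called lower, 0.110% in IP_RNase_ProK and 0.132% in mitoplast_RNase against IP_RNase.

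**Figure D4:**
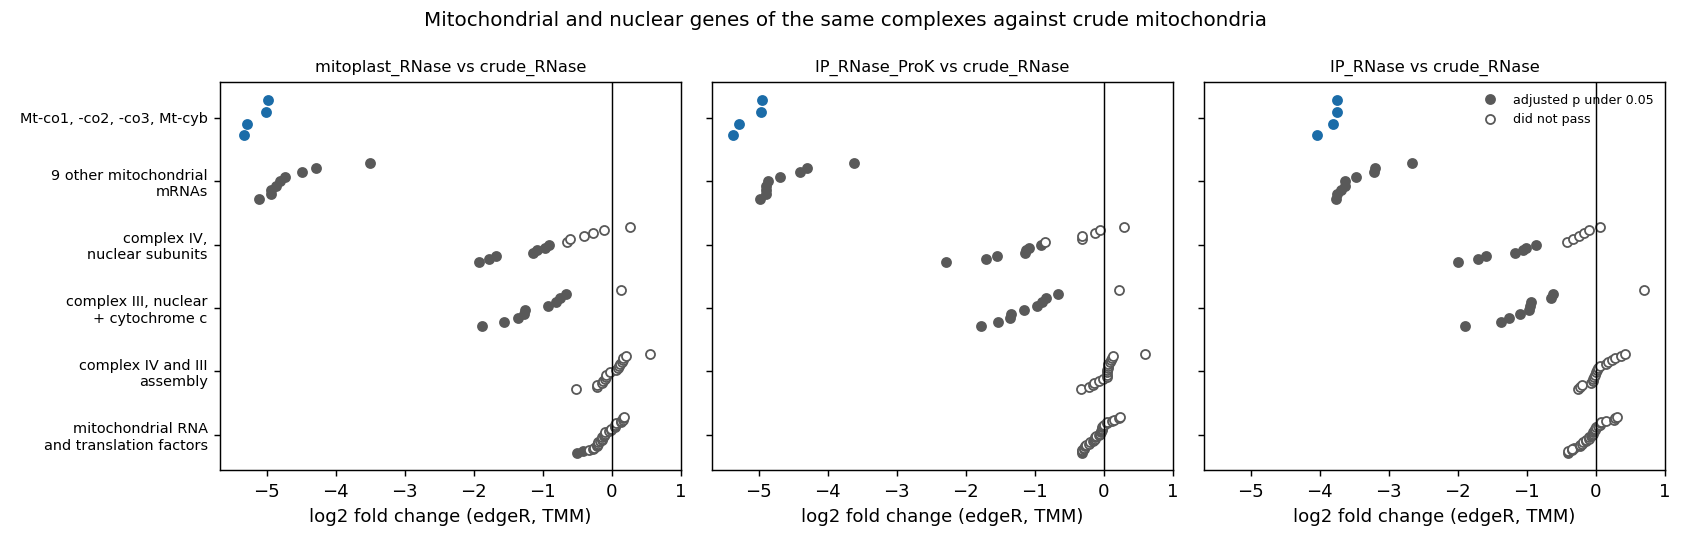
Log2 fold changes against crude_RNase with TMM scaling, 1 panel per bead-captured group, for the 4 mRNAs (blue), the 9 other mitochondrial mRNAs and the 4 lists of nuclear genes (grey), with filled points for genes past the threshold and open points for the rest. The 4 mRNAs lie at -3.75 or lower in each panel, and the lowest nuclear gene of the lists is Cox6c at -2.28 in IP_RNase_ProK; scaling to total counts turns the signs of many of the nuclear genes but of none of the 4 mRNAs.

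Among the nuclear subunits of both complexes that fell, the mean over the 12 libraries ranged from 43.6 counts for Cox7c to 190 for Uqcrc1, beside a median gene of 63 to 97 counts and an olfactory receptor median of 30 to 49. What part background counts have in their fold changes was not tested. Muscle fibre transcripts moved in the same direction as the 4 mitochondrial mRNAs. All 11 muscle fibre markers were lower in each bead-captured group, and their summed share was 0.240% to 0.407% of counts in mitoplast_RNase, 0.214% to 0.240% in IP_RNase_ProK, 0.221% to 0.314% in IP_RNase and 0.495% to 1.10% in crude_RNase. Ttn, titin, had the most counts of the 11, with a mean of 11642 over the 12 libraries. In crude_RNase it varied widely, at 6523 ± 6520 CPM (SD, 3 libraries), so the summed share leans on Ttn. Acta1, skeletal muscle actin, had a log2 fold change of -6.01 in IP_RNase. With scaling to total counts, 10 of the 11 were called lower in each bead-captured group. The eleventh, Myh7, slow myosin heavy chain, was called higher in mitoplast_RNase at 0.39 and in IP_RNase_ProK at 0.32, and was at 0.14 in IP_RNase without passing. All 5 fibroblast markers were lower as well, with 4 lower and Pdgfra higher under scaling to total counts. Myh7 and Pdgfra are named after their values were seen. Called lower in each bead-captured group were also 0 of 4 endothelial markers, 1 of 4 of macrophages and leukocytes, 1 of 2 erythroid markers and 1 of 3 adipocyte markers. Of all genes, 4.54% to 5.09% were called lower there. With scaling to total counts none of these was called lower, and 4 of 4, 4 of 4, 2 of 2 and 2 of 3 were called higher in each bead-captured group. Under that scaling 94.7% to 95.2% of all genes were called higher, so these counts are near the background. The TMM-scaled marker counts were as given without IP_RNase replicate 3 and without crude_RNase replicate 1. What part the other RNA in the libraries has in the lower share of the 4 mRNAs was not tested. Among bead-captured groups 0 of the 11 muscle fibre markers were called. Against IP_RNase only 0.110% of all genes were called lower in IP_RNase_ProK and 0.132% in mitoplast_RNase. The count of 0 is near these shares and does not set fibre transcripts apart from other genes.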

How the data were processed

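Ribosomal RNA-depleted libraries of 12 mitochondrial preparations were sequenced. The deposited values are raw counts of reads per gene, whole numbers with no scaling, per the file headers. Tools named in the submitters' processing notes are FastQC 0.74, cutadapt 4.6, STAR 2.7.11a and HTSeq, with build mRatBN7.2. Annotation release, strand setting and the handling of multiply mapping reads were not given in the sources used here. How reads over 2 genes were counted was not given either, so Mt-atp8 and Mt-atp6, which overlap on 1 strand, are uncertain. Antisense reads cannot be told apart without the strand setting, and nuclear copies of mitochondrial sequence could take or give reads. Sequences, positions and lengths of the 4 genes were not used here.

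Grouping followed the library titles. For crude_RNase the source and tissue labels name immunoprecipitation, against the title and design. A filterByExpr minimum count of 10 kept 26483 of 30560 genes (86.7%). All 12 libraries entered 1 quasi-likelihood model of 4 groups in edgeR 4.0.16 (R 4.3.3) with TMM scaling (factors 0.525 to 0.679 in crude_RNase, 1.12 to 1.23 elsewhere; common biological coefficient of variation 0.0644), 6 contrasts and Benjamini-Hochberg adjustment over all genes at 0.05. SEs were derived from the quasi-likelihood F, whose dispersions borrow from all genes, and can be smaller than a gene's own spread. Shares and ratios were tested by two-sided exact permutation with SciPy 1.17.1. Scripts were tested on simulated data. Errors cover counting and the spread of libraries only, as PCR copies are not independent molecules. Alternatives were other scalings, no filter, a replicate block, fits of 6 libraries, DESeq2 1.42.0, other denominators and leaving out each library. List counts without IP_RNase replicate 3 or crude_RNase replicate 1 were added after seeing the data. Named genes were the 4 members, the other 9 mitochondrial mRNAs, up to 4 genes per list with the smallest p among those called, Cox4i1, Cyc1 and Uqcrfs1, and the 8 most alike. The members, lists and rules were chosen with earlier results of these data known.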

Additional observations from a re-analysis of the deposited data

How the results depend on the processing

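Over the alternatives other than scaling on the 9 other mitochondrial mRNAs, all 72 log2 fold changes of the 4 mRNAs were negative and past the threshold in each comparison with crude_RNase, from -5.49 to -3.88 in mitoplast_RNase, -5.57 to -3.84 in IP_RNase_ProK and -4.52 to -2.71 in IP_RNase. All 72 were negative for IP_RNase_ProK against IP_RNase, 71 of them past the threshold, and for mitoplast_RNase against IP_RNase, 68 of them. Those 5 losses were all Mt-co1. The replicate block accounts for 1 of them (-1.14, edgeR adjusted p = 0.0706). For mitoplast_RNase against IP_RNase_ProK 49 of 72 were negative and 0 passed. Scaling on the 9 other mitochondrial mRNAs left 2, 2 and 1 of the 4 called in mitoplast_RNase, IP_RNase_ProK and IP_RNase against crude_RNase and 0 in both comparisons with IP_RNase, where Mt-co2 in IP_RNase_ProK was at 0.029 and Mt-co1 in mitoplast_RNase at 0.023. It removes by construction the change common to all mitochondrial mRNAs.

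The number of genes called against crude_RNase was 25402, 25408 and 25273 with total counts in mitoplast_RNase, IP_RNase_ProK and IP_RNase, and 26468, 26468 and 26448 with scaling on the 9 mRNAs. It was 4535 for IP_RNase with olfactory receptor scaling, and 1135 for IP_RNase_ProK in DESeq2. For IP_RNase_ProK against IP_RNase it was 37 and became 23 with total counts, 24626 with the 9 mRNAs and 143 with 6 libraries. For mitoplast_RNase against IP_RNase it was 41 and became 24514 and 115 with the last 2 of these. For mitoplast_RNase against IP_RNase_ProK it was 0 and became 1 and 11. For those shifts other than the 9 mRNA scaling the cause was not tested.

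Leaving out 1 library at a time gave 25 to 78 genes called for mitoplast_RNase against IP_RNase, 24 to 88 for IP_RNase_ProK against IP_RNase and 0 to 2 for mitoplast_RNase against IP_RNase_ProK. The highest counts came without crude_RNase replicate 1 (78 and 88) or 2 (73 and 77), and the lowest without mitoplast_RNase replicate 3 (25), IP_RNase replicate 1 (27 and 24) or IP_RNase_ProK replicate 1 (24). The log2 fold change for mitoplast_RNase against IP_RNase_ProK ranged from -0.056 to 0.29 for Mt-co1, -0.13 to 0.10 for Mt-co2, -0.17 to 0.13 for Mt-co3 and -0.14 to 0.10 for Mt-cyb. It ranged for Mt-co1 from -1.60 to -0.85 in IP_RNase_ProK and from -1.52 to -0.76 in mitoplast_RNase against IP_RNase.

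Relative to the other mitochondrial mRNAs, all differences from crude_RNase kept their sign in every alternative run, and over all bead-captured libraries those of Mt-co2 and Mt-cyb moved by over 1.5 times under a geometric mean. Small differences between bead-captured groups did not keep theirs. For Mt-co1 the range was -0.14 to 0.0039 for IP_RNase_ProK against IP_RNase and -0.044 to 0.10 for mitoplast_RNase against IP_RNase, with -0.027 for that pair under a geometric mean. For Mt-co2 it was -0.0070 to 0.055 and -0.056 to 0.036 in these 2 comparisons, with -0.040 under a geometric mean in the first and 0.0054 against the 6 heavy-strand complex I mRNAs in the second, and -0.085 to 0.0067 for mitoplast_RNase against IP_RNase_ProK. For Mt-cyb it was -0.049 to 0.027 for IP_RNase_ProK against IP_RNase, with 0.0023 against the 6 mRNAs, and -0.059 to 0.0016 for mitoplast_RNase against IP_RNase_ProK, where Mt-co3 ranged from -0.066 to 0.017.

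The labels do not say whether replicate numbers pair libraries across preparations. With group means removed, 0 of 18 same-numbered pairs correlated above 0.1 (-0.10 to 0.065), and 6 of 12 libraries correlated best with their own number. Such weak correlations cannot decide whether the libraries were paired. With the replicate block, 41 genes were called for mitoplast_RNase against IP_RNase and 33 for IP_RNase_ProK against IP_RNase, and Mt-co2 was at 0.00070 for mitoplast_RNase against IP_RNase_ProK. Depth did not limit the 4 mRNAs, whose lowest count was 2594. The limits are 1 animal, 3 libraries per preparation, unequal RNA input and relative measures.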

Other observations

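Within the 9 bead-captured libraries, the ratio of Mt-co1 to the 9 other mitochondrial mRNAs was higher in libraries with more counts on mitochondrial rRNA and tRNA genes per count on those 9 mRNAs. Pearson's r was 0.755 and Spearman's rho 0.717, with r = 0.755 without the 2 libraries farthest from the median, IP_RNase replicate 2 and mitoplast_RNase replicate 1, and r = 0.839 with group means removed. Mt-cyb went the other way, with r = -0.726, rho = -0.750, r = -0.710 without those 2 and r = -0.713 with group means removed. Mt-co2 had r = 0.0979, with 0.00025 without those 2 and 0.226 with group means removed. Mt-co3 had r = -0.373, with -0.129 without those 2 and 0.020 with group means removed. IP_RNase replicate 3, which stood apart from its group in its rRNA and tRNA counts, was kept in all of these values. How far they rest on that library was not tested. Both measures share a denominator and the libraries come from 3 preparations, the relation was noticed in these data, and so no p is given.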
